A study of Mus musculus with 6 samples.

Results

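The genes described here encode phase II conjugation enzymes of mouse hepatocytes, from 4 superfamilies: the UDP-glycosyltransferases (UGT), the soluble glutathione S-transferases (GST), the microsomal glutathione S-transferases (MGST) and the sulfotransferases (SULT). They are all protein-coding genes whose symbol begins with Ugt1, Ugt2, Ugt3, Gsta, Gstm, Gstp, Gstt, Gstk, Gsto, Gstz, Mgst or Sult. This gave 67 of the 55487 genes in the count tables, with 21 UGT, 22 GST, 3 MGST and 21 SULT genes, and 8 pseudogenes were left out. Hepatocytes of mice homozygous for AEG-1-C75S (C75S) were compared with those of AEG-1-WT mice (WT), with 3 libraries of each. AEG-1 is the product of *Mtdh*, and C75S puts a serine in the place of its palmitoylated cysteine. Mice of both genotypes were born to heterozygous parents and were 6 to 8 weeks old, RNA was taken 48 h after the cells were isolated, and all samples have the treatment label Control. Sex is not given, nor whether each library is a different mouse, so n counts libraries and the p-values measure the spread between them, which may be technical.

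Phase II enzymes join a polar group to drugs, hormones, bilirubin, bile acids and products of phase I oxidation, so that the conjugates dissolve in water and leave the cell through export pumps. UGT enzymes sit in the membrane of the endoplasmic reticulum and transfer a sugar, usually glucuronate from UDP-glucuronate. GST enzymes add glutathione to electrophiles, and SULT enzymes transfer sulfate from PAPS, the activated sulfate donor. The liver is a main site of these reactions, and many of the genes lie in tandem clusters of close relatives.

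Library totals ran from 16944723 (C75S replicate 1) to 21044292 counts on genes. Levels are given as CPM, counts per 1000000 with library sizes scaled by TMM, and 3 counts were worth 0.143 to 0.177 CPM. Unmapped reads made up 4.75% to 5.81% of reads in C75S and 4.37% to 4.59% in WT. *Mtdh* was at 199.6 ± 10.5 CPM in C75S against 197 ± 5.17 CPM in WT (log2 fold change 0.02, SE 0.05; edgeR, adjusted p = 0.909). All 10 hepatocyte markers were tested, *Fgb* was called higher and *Ahsg* lower, and they summed to 82120 to 95790 CPM in C75S against 91380 to 99790 CPM in WT. The 10 cholangiocyte markers summed to more in every C75S library, 180.5 to 235 against 161 to 169 CPM. *Spp1* (131 CPM in C75S, 90.9 in WT) gave most of that sum, *Krt19* was the 1 called marker of 5 tested (9.51 ± 1.22 against 5.46 ± 0.258 CPM), *Epcam* stayed at or under 0.569 CPM and *Cftr* was at 0. Kupffer cell, endothelial and stellate cell marker sums overlapped between genotypes, at 96.5 to 140 against 102 to 134, 38.1 to 48.96 against 36.6 to 48.4 and 54.7 to 71.4 against 70.1 to 92.6 CPM. Single genes gave most of each sum: *Cd68* (118 CPM in C75S, 116.5 in WT), *Stab2* (24.9 and 26.4) and *Reln* (58.7 and 75.1). Of 10 Kupffer cell markers, 8 stayed under 1 CPM in every library. Of 8 tested endothelial markers, 6 had higher and 2 lower estimates, among them *Lyve1* (2.46 CPM in C75S, 1.36 in WT) and *Pecam1* (3.19 and 1.97), and 0 were called. The part of markers, depth and unmapped reads in the results below was not tested, and in bulk samples fewer cells of a type and less RNA per cell cannot be told apart.

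Levels of different genes were compared per length, as CPM per kilobase (kb) of exon that no other gene covers on the same strand. The tested members ran from 0.406 to 1504 CPM per kb over all 6 libraries, and GST genes led. In WT, *Gstm3* reached 1651 ± 40.2 and *Gstm1* 1448 ± 20.5 CPM per kb (mean ± SD, n = 3, as for the other levels here). Both belong to the mu class, which detoxifies epoxides and other electrophiles. They gave 35.1% and 36.7% of all GST counts. In C75S the pair did not differ beyond their spread, at 1358 ± 134 and 1355 ± 85.1 CPM per kb. Over the longest coding transcript in place of all exons, *Gstm1* ranked above *Gstm3* (1601 against 1504 CPM per kb over all libraries). The pi-class gene *Gstp3* followed at 172 ± 8.56, *Gstm2* at 146 ± 9.19, the alpha-class gene *Gsta3* at 102 ± 4.14 and *Gstp1* at 85.1 ± 9.23 CPM per kb in WT. *Gsta3* depended on the length used, with 101 CPM per kb over all exons and 301 over its longest coding transcript.

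Other GST classes were lower. *Gsta4*, whose enzyme acts on the lipid peroxidation product 4-hydroxynonenal, and the theta-class *Gstt1* did not differ beyond their spread in WT, at 55.04 ± 2.16 and 55.2 ± 3.87 CPM per kb. *Gsto1*, an omega-class enzyme with a cysteine in its active site, was at 46.3 ± 2.803, and *Gstz1*, the maleylacetoacetate isomerase of tyrosine breakdown, at 20.3 ± 1.56 CPM per kb. *Gstk1*, of the mitochondrial and peroxisomal kappa class, was at 11.2 ± 0.819 and *Gstt2* at 5.92 ± 0.265 CPM per kb. *Gsto2* had 1 to 4 counts in each library and *Gstt4* 1 count in all, so neither was tested. *Mgst1*, a membrane enzyme with transferase and peroxidase activity, was at 353 ± 24.9 CPM per kb in WT, the level next below the Gstm pair, and *Mgst3* at 33.6 ± 3.29. *Mgst2* had 3 counts in WT replicate 1 and none elsewhere.

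Among UGT genes the Ugt2b genes led, whose enzymes glucuronidate steroids, bile acids and drugs. In WT, *Ugt2b36* was at 195 ± 9.02, *Ugt2b5* at 112 ± 5.24 and *Ugt2b34* at 99.1 ± 3.68 CPM per kb. With *Ugt2b35* (13.2%), these genes (27.6%, 14.1% and 30.4%) gave most UGT counts. *Ugt1a1*, the bilirubin glucuronosyltransferase, led the Ugt1 family at 75.98 ± 1.12 CPM per kb and 62.2% of its counts. The 9 Ugt1 genes each have some exon bases of their own and share later exons, where a read counts to none of them. The own bases need not lie in the coding transcript: the longest one of *Ugt1a6a* lies wholly (100%) within that of *Ugt1a7c*. *Ugt1a1* was therefore counted on 913 of 2224 exon bases, and its 79.02 CPM per kb over all libraries would be 32.4 over the total length. *Ugt1a8*, *Ugt2a1* and *Ugt2a2* had no count, though only 30 and 140 exon bases of the last pair are not covered by another gene. *Ugt1a2*, *Ugt1a10* and *Ugt2b38* had counts below the filter.

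SULT genes fell into a pair of high members and many at or near 0. *Sult1a1*, which sulfates phenols, was at 276 ± 5.11 and *Sult1d1*, whose enzyme acts on catecholamines, at 98.7 ± 7.69 CPM per kb in WT, with 63.3% and 34.5% of SULT counts. *Sult1e1*, the estrogen sulfotransferase, *Sult1b1*, *Sult2a8*, *Sult1c2* and *Sult5a1* were tested at WT means of 0.417 to 1.498 CPM per kb. Of the 8 Sult2a genes, whose enzymes sulfate hydroxysteroids and bile acids, 6 had no count and *Sult2a7* had 1. *Sult3a1*, *Sult3a2* and *Sult1c1* had no count either, and *Sult2b1*, *Sult4a1*, *Sult6b1* and *Sult6b2* had counts below the filter. A count of 0 allows up to 3 counts in a library, by counting error alone, and up to 62.1% of the 50-base windows of a silent Sult2a transcript occur in another gene, where reads with several matches are not counted. Many Sult2a and Sult3a genes are known as female-biased in mouse liver. Of 10 female-biased liver genes outside the members, 9 stayed under 1 CPM in every library. The other, *Cyp17a1*, was at 117.5 CPM in C75S and 152 in WT (edgeR, adjusted p = 0.173). Of the 2 tested genes of this list, 0 were called in edgeR and 1 in DESeq2 and limma-voom. Of 10 male-biased liver genes, 1 stayed under 1 CPM in every library, and *Hsd3b5* passed 1 CPM in C75S replicate 2 alone (1.04 CPM). The others ranged widely, from *Cyp2u1* (3.42 CPM in C75S, 3.76 in WT) to *Serpina1e* (1214 and 1295). *Xist*, the transcript of the inactive X chromosome, was at or under 0.3895 CPM, and the Y-linked *Eif2s3y* was at 86.7 to 103 CPM. Of 4 tested sex-linked transcripts, the Y-linked *Ddx3y* was called, at 128, 121 and 115 CPM in C75S against 101, 96.02 and 104 CPM in WT (log2 fold change 0.28, SE 0.05; edgeR, adjusted p = 0.00319).

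**Figure D1:**
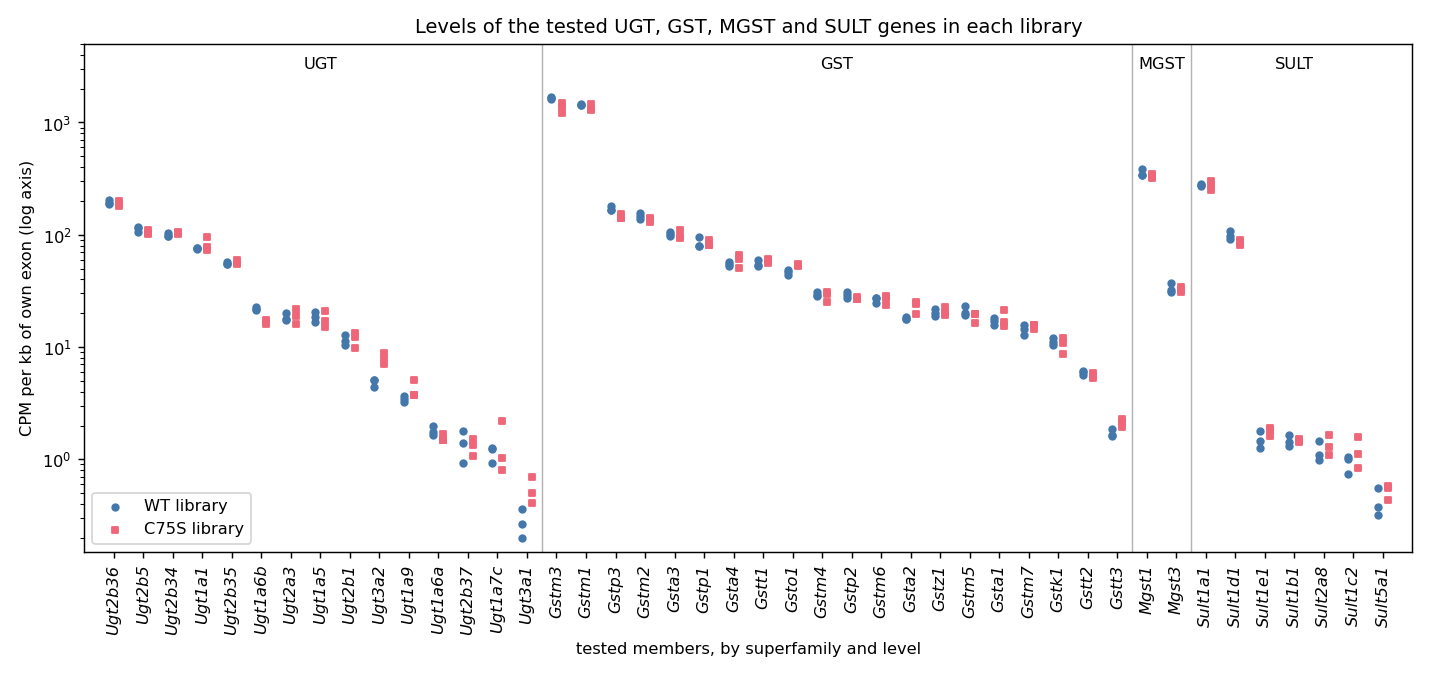
Level of each of the 44 tested members in each library, in CPM per kb of own exon on a log axis, by genotype. *Gstm3* and *Gstm1* are highest, with WT means of 1651 and 1448, and *Ugt3a1* is lowest, with a WT mean of 0.277.

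The comparison of C75S with WT asked which of these transcripts differ when AEG-1 lacks the palmitoylated cysteine. In edgeR's quasi-likelihood test over all genes, with a Benjamini-Hochberg adjusted p-value under 0.05, 7 of the 44 tested members were called (15.9%), where 3.11% of all 12741 genes tested were. *Ugt3a2*, *Gsta2* and *Gsto1* rose, and *Ugt1a6b*, *Gstm3*, *Gstp3* and *Sult1d1* fell (1.74% of all genes rose and 1.37% fell). The other 23 members, 12 with no count and 11 with few, were not tested. Most differences were small: 42 of the 44 were under 1.5-fold, 35 were under 1.2-fold, and of the called members *Ugt3a2* alone passed 1.5-fold. The estimates lay on both sides of 0, 23 higher and 21 lower, and their median log2 fold change was 0.0036 beside -0.003 for all genes. The genotypes did not overlap in 10 members (22.7%, against 18% of all genes), with C75S higher in 6 (background 9.01%) and lower in 4 (background 8.96%). Before adjustment, 9 members (20.5%) had a p-value under 0.05, as did 13.4% of all genes. The count of 7 calls needed all libraries: it was 2 without C75S replicate 1 or WT replicate 2, 3 without WT replicate 3, 4 without C75S replicate 2 or WT replicate 1 and 5 without C75S replicate 3.

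**Figure D2:**
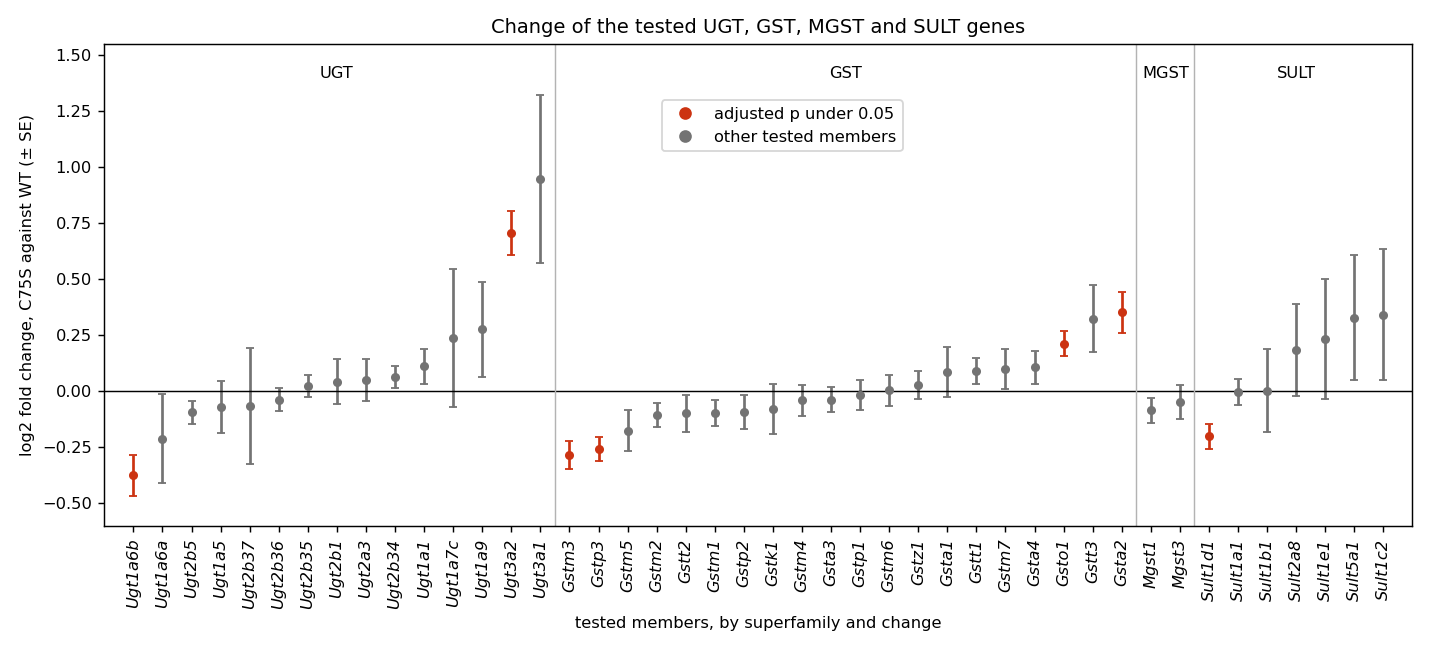
Log2 fold change of C75S against WT for the 44 tested members, with the standard error as the bar, by superfamily. The 7 called members are marked in red, from -0.37 for *Ugt1a6b* to 0.71 for *Ugt3a2*.

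The promoters of 5 of the 7 called members, those with an entry in the table used (not *Ugt3a2* or *Ugt1a6b*), are shown because their genes moved in different directions, together with *Gsta1*, the uncalled copy of *Gsta2*. Each is the 250 bases before the RefSeq start site in GRCm38.p6, 5′ to 3′ on the gene's strand. Capitals mark GCGTG on either strand, the core of the xenobiotic response element bound by the aryl hydrocarbon receptor (AHR). TGACNNNGC, the core of the antioxidant response element bound by NRF2, was searched on both strands too.
Gsta2, chr9:78347146-78347395, minus strand: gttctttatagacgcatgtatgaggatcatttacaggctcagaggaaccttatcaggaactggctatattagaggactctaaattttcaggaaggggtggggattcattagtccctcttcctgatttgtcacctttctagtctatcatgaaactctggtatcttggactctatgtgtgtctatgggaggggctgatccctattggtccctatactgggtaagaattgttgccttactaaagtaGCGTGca
Gsta1, chr9:78230419-78230668, plus strand: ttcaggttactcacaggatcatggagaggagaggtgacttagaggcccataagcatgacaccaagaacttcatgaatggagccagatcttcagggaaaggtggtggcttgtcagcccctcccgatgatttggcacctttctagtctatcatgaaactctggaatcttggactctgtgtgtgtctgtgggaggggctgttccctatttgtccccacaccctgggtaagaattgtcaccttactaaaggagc
Gsto1, chr19:47854723-47854972, plus strand: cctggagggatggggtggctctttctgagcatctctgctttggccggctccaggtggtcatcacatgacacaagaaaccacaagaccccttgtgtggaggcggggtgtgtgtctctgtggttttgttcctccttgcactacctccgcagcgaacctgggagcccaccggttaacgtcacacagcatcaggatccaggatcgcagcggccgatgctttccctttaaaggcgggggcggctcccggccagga
Gstm3, chr3:107969175-107969424, minus strand: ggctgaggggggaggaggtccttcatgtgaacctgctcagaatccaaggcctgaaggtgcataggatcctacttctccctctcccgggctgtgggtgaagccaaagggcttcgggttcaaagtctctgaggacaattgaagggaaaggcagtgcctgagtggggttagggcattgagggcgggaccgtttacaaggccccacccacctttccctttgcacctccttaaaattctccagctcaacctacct
Gstp3, chr19:4059448-4059697, minus strand: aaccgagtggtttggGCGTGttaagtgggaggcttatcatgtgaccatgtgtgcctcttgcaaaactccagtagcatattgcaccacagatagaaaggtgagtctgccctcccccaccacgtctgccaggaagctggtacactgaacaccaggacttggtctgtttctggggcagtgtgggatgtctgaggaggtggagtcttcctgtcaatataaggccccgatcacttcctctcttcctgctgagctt
Sult1d1, chr5:87569007-87569256, minus strand: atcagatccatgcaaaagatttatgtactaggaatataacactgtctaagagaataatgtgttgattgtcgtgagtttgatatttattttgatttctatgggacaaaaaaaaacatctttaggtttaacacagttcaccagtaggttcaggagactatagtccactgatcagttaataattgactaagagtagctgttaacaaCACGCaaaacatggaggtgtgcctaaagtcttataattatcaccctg

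The *Gsta2* and *Gsta1* regions aligned over 239 positions, 184 of them identical (77%). *Gsta2*, which rose, has GCGTG 7 to 3 bases before its start, and *Gsta1* has none in these 250 bases but 1 in the window that goes on to 50 bases past its start, the same count there as *Gsta2*. *Gstp3* and *Sult1d1*, which fell, hold 1 match each, while *Gsto1* and *Gstm3* hold none. None of the 6 regions holds TGACNNNGC. RefSeq promoters were matched for 59 members, with 71 starts. Counting to 50 bases past the start, GCGTG was in 19.7% of these and 32.4% of all 32851 promoters. TGACNNNGC was in 5.63% (*Gsta3*, *Gstm5*, *Gstm7* and *Mgst1*, none of them called) against 12.4%. Promoters of members had a median of 46.3% G and C, against 52.7% over the table. Among promoters of tested genes alone, GCGTG was in 49.95% and TGACNNNGC in 14.5%. For tested members these shares were 22% and 8%. The median G and C was 60.3% for tested genes and 48.8% for tested members.

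*Ugt3a2* (ENSMUSG00000049152, chromosome 15, 9335550 to 9370955, plus strand, GENCODE M21 on GRCm38, as for the genes below) rose furthest of the called members. UGT3 enzymes use sugars other than glucuronate. It was at 21.7, 24.6 and 27.3 CPM in C75S against 13.7, 15.7 and 15.7 CPM in WT. Every C75S library lay above every WT library, 1.63-fold on average (log2 fold change 0.71, SE 0.10; edgeR, adjusted p = 6.7e-05). The call held in all 14 alternative fits (adjusted p up to 0.00112). Its neighbour *Ugt3a1*, near the lower limit of the test, was at 1.09, 1.33 and 1.87 CPM in C75S against 0.712, 0.536 and 0.969 CPM in WT. Those groups did not overlap either, but the gene did not pass (log2 fold change 0.95, SE 0.37; edgeR, adjusted p = 0.223; unadjusted p = 0.0183). The pair's transcripts are 91.6% identical, and 9.4% of the 50-base windows of *Ugt3a2* recur in another gene. *Mtdh* lies 24.7 megabases away on the same chromosome, where 20 of 491 tested genes (4.07%, against 3.11% of all genes) were called. The share was 5.15% on chromosome 1 and 1.64% on chromosome 14.

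*Ugt1a6b* (ENSMUSG00000090145, chromosome 1, 88103252 to 88219003, plus strand) had the largest fall. Ugt1a6 enzymes conjugate small planar phenols. It was at 15.8, 16.4 and 15.02 CPM in C75S against 20.3, 19.9 and 21.1 CPM in WT. The groups were well apart (log2 fold change -0.37, SE 0.09; edgeR, adjusted p = 0.02097), yet the call was lost without C75S replicate 1 or 3 or WT replicate 2 or 3 (adjusted p 0.0573 to 0.0996). Its copy *Ugt1a6a* was at 3.32 ± 0.244 CPM in C75S against 3.85 ± 0.387 CPM in WT (log2 fold change -0.21, SE 0.20; edgeR, adjusted p = 0.715). Because 80.7% of the windows of *Ugt1a6b* recur in other Ugt1a genes, the exons they share included, its count is uncertain. For *Ugt1a6a* the share is 100%, all in *Ugt1a7c*. The count of *Ugt1a6a* therefore cannot be taken as a measure of its coding transcript. *Ugt1a1* was at 66.9, 70.3 and 87.5 CPM in C75S against 68.3, 70.3 and 69.6 CPM in WT and did not pass (log2 fold change 0.11, SE 0.08; edgeR, adjusted p = 0.599), with C75S replicate 3 above all other libraries. *Ugt1a9* was higher in each C75S library but did not pass either (log2 fold change 0.28, SE 0.21; edgeR, adjusted p = 0.632).

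*Gstm3* (ENSMUSG00000004038, chromosome 3, 107963696 to 107969283, minus strand), the highest member in WT, fell. It was at 1596, 1944 and 1799 CPM in C75S against 2220, 2116 and 2156 CPM in WT. No C75S library reached the WT range, and C75S replicate 1 was lowest (log2 fold change -0.28, SE 0.06; edgeR, adjusted p = 0.0111). The call was lost without C75S replicate 1 (adjusted p 0.0585), WT replicate 1 (0.0553) or WT replicate 2 (0.0524). *Gstm1* was at 1897, 2137 and 1952 CPM in C75S against 2114, 2116 and 2167 CPM in WT. Its groups overlapped through C75S replicate 2, and it did not pass (log2 fold change -0.10, SE 0.06; edgeR, adjusted p = 0.501). Whether the pair differ in their change was not tested. Of their windows, 28.8% for *Gstm3* and 23.1% for *Gstm1* recur in other genes or pseudogenes, which makes both counts uncertain.

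*Gstp3* (ENSMUSG00000058216, chromosome 19, 4057477 to 4059569, minus strand), of the pi class, fell as well. It was at 127, 127 and 138 CPM in C75S against 152, 165 and 152 CPM in WT. The groups did not overlap (log2 fold change -0.26, SE 0.05; edgeR, adjusted p = 0.00534), and the call was lost without WT replicate 2 (adjusted p 0.0744). None of its 50-base windows occurs in another gene. *Gstp1* and *Gstp2* beside it, 94.2% identical to each other, had log2 fold changes of -0.02 (SE 0.07) and -0.09 (SE 0.08) and did not pass (edgeR, adjusted p = 0.958 and 0.667).

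*Gsto1* and *Gsta2* were the GST genes that rose. *Gsto1* (ENSMUSG00000025068, chromosome 19, 47854970 to 47864790, plus strand) was at 110.3, 107 and 109 CPM in C75S against 87.8, 99.2 and 93.8 CPM in WT. The C75S libraries were close together and above all WT libraries (log2 fold change 0.21, SE 0.05; edgeR, adjusted p = 0.0264). Leaving out WT replicate 1 or 3, or C75S replicate 1, 2 or 3, ended the call (adjusted p 0.051 to 0.101). *Gsta2* (ENSMUSG00000057933, chromosome 9, 78331018 to 78355788, minus strand), of the alpha class, was at 29.4, 28.6 and 23.3 CPM in C75S against 21.6, 20.9 and 21.1 CPM in WT. C75S replicate 3 was near the WT range and the other C75S libraries were further above it (log2 fold change 0.35, SE 0.09; edgeR, adjusted p = 0.0294). Leaving out C75S replicate 1 or 2, or WT replicate 1, 2 or 3, ended this call (adjusted p 0.0529 to 0.173). *Gsta1*, 97.2% identical, was at 16.1, 20.5 and 14.7 CPM in C75S against 14.99, 17.2 and 16.3 CPM in WT, overlapping groups that did not pass (log2 fold change 0.09, SE 0.11; edgeR, adjusted p = 0.814). With 64.2% of the windows of *Gsta2* and 89.7% of those of *Gsta1* shared with other genes, both counts are uncertain. The theta-class *Gstt3*, which shares an exon with *Gm20441*, was at 6.48, 7.54 and 7.16 CPM in C75S against 6.12, 5.36 and 5.48 CPM in WT, without overlap, and did not pass (log2 fold change 0.32, SE 0.15; edgeR, adjusted p = 0.334; unadjusted p = 0.0403).

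*Sult1d1* (ENSMUSG00000029273, chromosome 5, 87554645 to 87569027, minus strand) was the called sulfotransferase. It was at 199.5, 213 and 221 CPM in C75S against 226, 239 and 263 CPM in WT. The groups did not overlap, though C75S replicate 3 and WT replicate 1 were close (log2 fold change -0.20, SE 0.06; edgeR, adjusted p = 0.04902). The adjusted p-value was 0.0549 in DESeq2 and 0.0686 in limma-voom, and in edgeR 0.106 to 0.284 without C75S replicate 1 or 2 or WT replicate 2 or 3, so the call was lost in each. *Sult1a1* was at 376, 451 and 419.5 CPM in C75S against 425, 414 and 410.2 CPM in WT, with overlap (log2 fold change -0.0029, SE 0.06; edgeR, adjusted p = 0.989). The other 5 tested SULT genes had log2 fold changes of 0.0033 to 0.34 with standard errors of 0.19 to 0.29. None of them was called in edgeR, DESeq2 or limma-voom, and 0 reached an unadjusted p-value under 0.05.

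**Figure D3:**
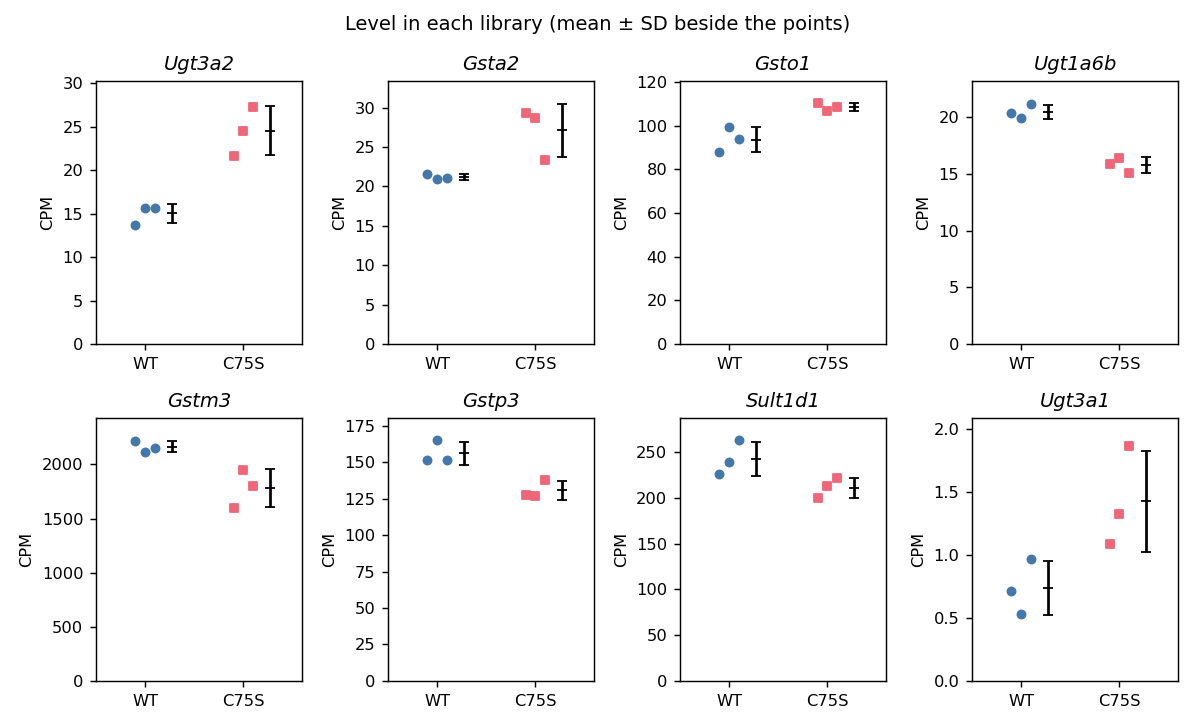
CPM in each library for the 7 called members and for *Ugt3a1*, which was not called, on axes from 0, with the mean and SD of each genotype. The genotypes do not overlap in any panel, and for *Sult1d1* the nearest values are 221 and 226 CPM.

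Summed over the superfamily, GST transcripts were lower in every C75S library. The sums were 5026, 5720 and 5294 CPM in C75S against 5989, 5808 and 5888 CPM in WT. The log2 ratio of the means was -0.14, and -0.10 without C75S replicate 1, the lowest library. The Gstm genes, most of that sum, were at 4154 ± 308 CPM in C75S against 4695 ± 56.1 CPM in WT, and the Gstp genes at 291 ± 7.04 and 320.2 ± 13.04 CPM, both lower in every C75S library. The Gsto sum went the other way, higher in every C75S library (108.7 ± 1.80 against 93.7 ± 5.67 CPM). The Gsta sum overlapped (552 ± 42.8 against 551 ± 18.3 CPM). UGT genes summed to 1389, 1474 and 1459 CPM in C75S against 1431, 1403 and 1452 CPM in WT, also with overlap. The SULT sums (642 ± 44.6 against 673 ± 11.4 CPM) and MGST sums (705 ± 27.5 against 747 ± 53.8 CPM) overlapped too, while the Ugt3 pair was higher in every C75S library (25.9 ± 3.21 against 15.8 ± 1.19 CPM), mostly from *Ugt3a2*. The sums were not tested, and the most abundant genes dominate them.

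**Figure D4:**
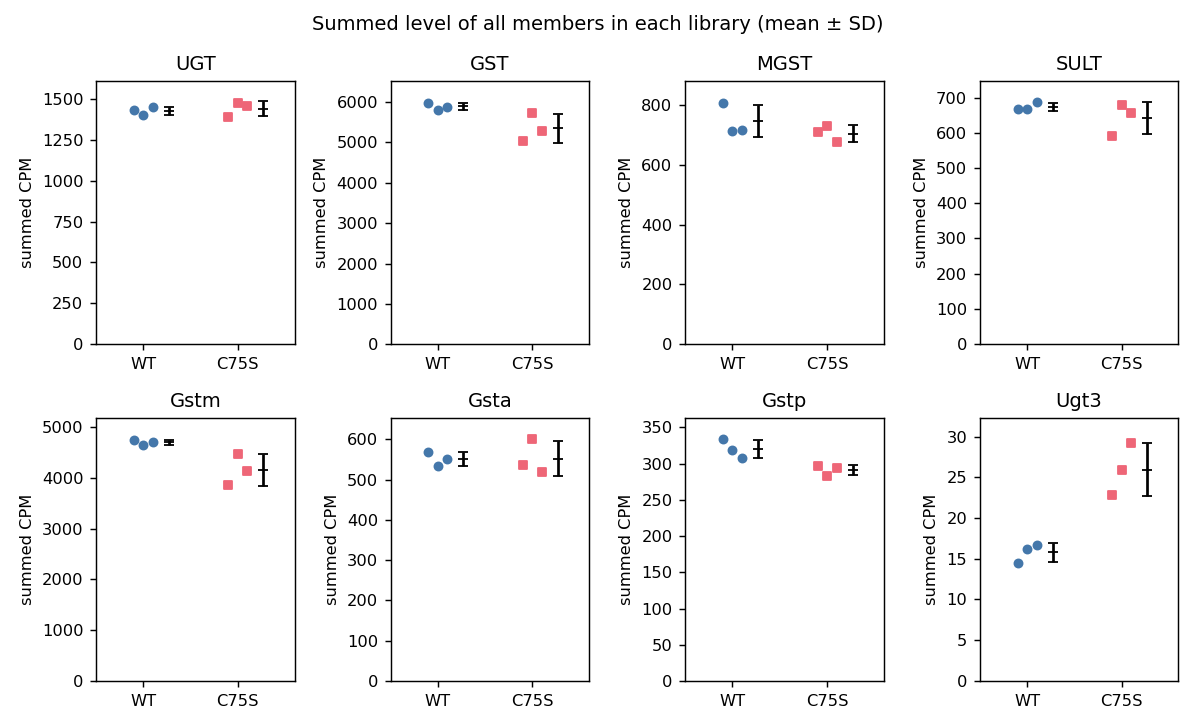
Summed CPM of the superfamilies (upper row) and of selected families (lower row) in each library, on axes from 0, with the mean and SD of each genotype. The GST sum is lower in every C75S library, at most 5720 CPM against at least 5808 CPM in WT.

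The median log2 fold change was -0.03 over 20 tested GST genes (9 higher, 11 lower), -0.07 over 2 MGST genes, 0.04 over 15 UGT genes (9 higher, 6 lower) and 0.18 over 7 SULT genes (5 higher, 2 lower). Single libraries turned the sign of the first 3 medians: the GST median was 0.02 without C75S replicate 1, the MGST median 0.01 without WT replicate 1 and the UGT median -0.04 without C75S replicate 2. The SULT median was as low as 0.06 without C75S replicate 1. *Mgst1* was at 675, 693 and 641 CPM in C75S against 768, 679.6 and 683 CPM in WT, with WT replicate 1 above the rest, and did not pass (log2 fold change -0.08, SE 0.06; edgeR, adjusted p = 0.558). Neither MGST gene was called in edgeR, DESeq2 or limma-voom, with 0 at an unadjusted p-value under 0.05.

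The 7 tested Ugt2 genes had log2 fold changes between -0.09 and 0.06, and 0 were called in edgeR, DESeq2 or limma-voom, with 0 at an unadjusted p-value under 0.05. *Ugt2b36* was at 375, 409.5 and 389.9 CPM in C75S against 422, 387 and 396 CPM in WT, with overlap (log2 fold change -0.04, SE 0.05; edgeR, adjusted p = 0.827). *Ugt2b5* was at 193, 205 and 188 CPM in C75S against 198, 212 and 216 CPM in WT, with overlap (log2 fold change -0.09, SE 0.05; edgeR, adjusted p = 0.457). *Ugt2b38*, below the filter, had 10, 10 and 11 counts in C75S and 0, 4 and 6 in WT. Its transcript is 95.5% identical to that of the far more abundant *Ugt2b5*, so its reads are uncertain.

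The called genes of the Ugt2 with Sult1, Gstm and Ugt1 clusters lay singly. On chromosome 5, 13 members span 702 kb, and *Sult1d1* was called of 10 tested. In the Gstm cluster on chromosome 3, all 7 genes within 149 kb were tested, *Gstm3* was called and 5 of the genes had negative estimates. In the Ugt1 cluster on chromosome 1, *Ugt1a6b* was called of 6 tested, with estimates of 0.24 for *Ugt1a7c* (SE 0.31) on one side and -0.21 for *Ugt1a6a* (SE 0.20) on the other. Of the windows of *Ugt1a7c* and *Ugt1a6a*, 69.3% and 100% recur in other genes, so both counts are uncertain. The longest cluster, Sult2a on chromosome 7, spans 870.3 kb with 8 members, of which *Sult2a8* was the 1 tested and was not called (log2 fold change 0.18, SE 0.21; edgeR, adjusted p = 0.7702). Whether neighbours differ in their change was not tested.

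**Figure D5:**
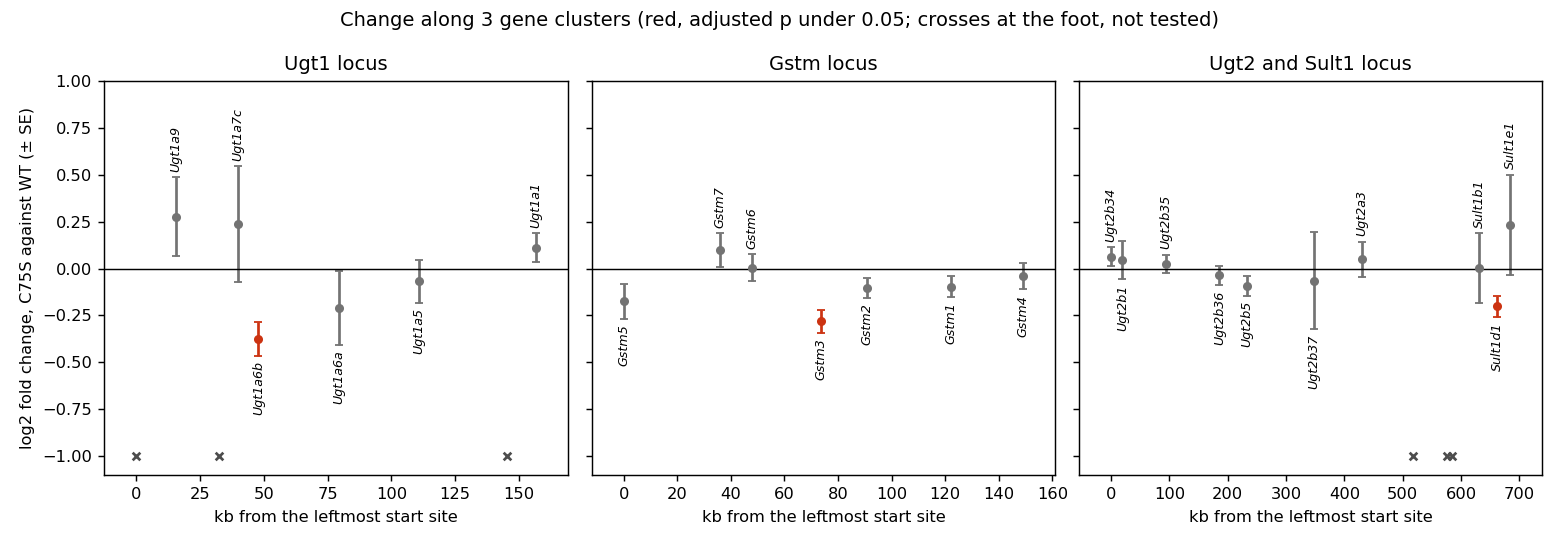
Log2 fold change of C75S against WT, with the standard error as the bar, by distance in kb along the Ugt1, Gstm and Ugt2 with Sult1 clusters. Each holds 1 called gene: *Ugt1a6b* at -0.37, *Gstm3* at -0.28 and *Sult1d1* at -0.20.

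Among 92 tested genes of the pathway lists, 5 were called (5.43%, against 3.11% of all genes). The lists hold genes that supply, move, reverse or control conjugation, other conjugating enzymes, and indicator genes of the xenobiotic sensors. Of the 5 calls, *Cyp2b10* and *Hmox1* are such indicator genes. *Papss2*, which makes PAPS, rose and was the called one of 8 sulfate supply genes. It was at 89.9, 99.8 and 95.99 CPM in C75S against 82.1, 78.9 and 78.6 CPM in WT, without overlap (log2 fold change 0.26, SE 0.05; edgeR, adjusted p = 0.007499). The call was lost without C75S replicate 2 (adjusted p 0.0609) or WT replicate 2 (0.0564). Of 14 other conjugating enzymes, the nicotinamide methyltransferase gene *Nnmt* rose (40.6 ± 2.5 CPM in C75S, 33.2 ± 2.64 in WT; log2 fold change 0.29, SE 0.08; edgeR, adjusted p = 0.0305) and the glycine N-acyltransferase gene *Glyat* fell (159 ± 8.21 CPM in C75S, 186 ± 15.2 in WT; log2 fold change -0.22, SE 0.06; edgeR, adjusted p = 0.0281). *Nnmt* lost its call without C75S replicate 2 or 3 or WT replicate 2 or 3 (adjusted p 0.0764 to 0.184), and *Glyat* without C75S replicate 1 or 3 or WT replicate 1 or 2 (0.0668 to 0.161). In edgeR, DESeq2 and limma-voom, 0 of 12 glutathione supply genes (5 at an unadjusted p-value under 0.05), 0 of 4 UDP-glucuronate supply genes (2) and 0 of 9 conjugate exporters (2) were called. Of 11 deconjugation and mercapturate genes, 0 were called in edgeR and DESeq2 and 2 in limma-voom (2 at an unadjusted p-value under 0.05).

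The called target genes of the xenobiotic sensors fell. *Cyp2b10*, a cytochrome P450 gene induced through the receptor CAR, was at 615, 816 and 787 CPM in C75S against 1078, 1039 and 1018 CPM in WT. It was the called one of 6 CAR and PXR indicator genes (log2 fold change -0.50, SE 0.09; edgeR, adjusted p = 0.00731), and the call was lost without WT replicate 1 or WT replicate 3 (adjusted p 0.0523 for each). Of the 6, 2 had higher and 4 lower estimates (median log2 fold change -0.15), with 3 at an unadjusted p-value under 0.05. *Hmox1*, heme oxygenase, was at 274, 264 and 269.6 CPM in C75S against 326, 384 and 317 CPM in WT, without overlap (log2 fold change -0.35, SE 0.06; edgeR, adjusted p = 0.000997). It was the called one of 9 NRF2 indicator genes, whose median log2 fold change was 0.04, and kept its call in all 14 alternative fits. Of the 9, 5 had higher and 4 lower estimates, with 2 at an unadjusted p-value under 0.05. *Akr1b8*, near the lower limit of the test, was higher but did not pass (0.851 CPM in C75S, 0.322 in WT, log2 fold change 1.38, SE 0.48, edgeR, adjusted p = 0.149). In edgeR, DESeq2 and limma-voom, 0 of 3 AHR indicator genes (1 at an unadjusted p-value under 0.05) and 0 of 16 sensors and liver transcription factors (3) were called. *Nfe2l2*, which encodes NRF2, was at 325 ± 9.31 CPM in C75S against 351 ± 8.73 CPM in WT (log2 fold change -0.11, SE 0.05; edgeR, adjusted p = 0.277), and *Nr1i3*, which encodes CAR, at 3.83 ± 0.787 and 3.601 ± 0.246 CPM (log2 fold change 0.09, SE 0.20; edgeR, adjusted p = 0.903).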

How the data were processed

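RNA of 6 hepatocyte samples was sequenced on a HiSeq3000 from TruSeq libraries, per the labels' protocols. The deposited files hold raw counts for each Ensembl gene, as STAR reports them. The submitters' processing notes name Trim Galore 0.6.6, STAR 2.7.9a, edgeR 3.36.0, mm10 and GRCm38, and the annotation release is not given in the sources used here. The reverse-strand column was taken, as its totals were 32.9 to 33.9 times the forward-strand totals, and the 4 summary rows were dropped. Multimapping reads (17.98% to 18.5%) count to no gene. GENCODE M21 (GRCm38) gave symbols, positions and exon lengths for 55227 of 55487 rows.

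After filterByExpr (minimum count 10, minimum total 15) and TMM scaling, edgeR 4.0.16 in R 4.3.3 fitted genotype alone by robust quasi-likelihood with a two-sided F-test, Benjamini-Hochberg adjustment over 12741 genes and a threshold of 0.05. The SE is the log2 fold change divided by the root of F. For this comparison, simulated counts of 12741 genes with 200 changed by 1.5-fold gave 73.5% of them back, with 5.16% of calls false and 4 calls where nothing changed. Smaller changes, like those of most members, were not simulated. Transcripts were compared with BLAST 2.17.0 and by shared 50-base windows. Alternatives were other scalings (RLE, upper quartile, library size), no filter, DESeq2 1.42.0, limma-voom (limma 3.58.1), unstranded counts, a replicate block, each library left out, and other gene lengths.

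Members and lists were chosen with earlier results of these data known. The rule named *Mtdh*, members with an adjusted or unadjusted p-value under 0.05, the 2 highest members per length of each family, untested members and called pathway genes. Other genes were added after their values were seen, as copies, neighbours, regulators or markers. Of 172 list genes, 1 was not matched.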

Additional observations from a re-analysis of the deposited data

How the results depend on the processing

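With all 6 libraries kept, other scalings, no filter, unstranded counts, DESeq2 and limma-voom called 6 or 7 members, always from the same 7, and *Sult1d1* was the one lost. With 1 library left out, 2 to 5 members were called instead of 7, 201 to 355 genes of all tested instead of 396, and 2 to 6 pathway genes instead of 5. The pathway count was 16 with no filter, which tested more genes, and 9 with the replicate block; the cause was not tested. No called member or called pathway gene changed direction in any of the 14 fits. With 1 library left out, the median log2 fold change ran from 0.0633 to 0.248 for SULT and from -0.0407 to 0.0939 for UGT genes. Over longest coding transcripts, a length chosen after seeing the data, 9 of the 10 highest members stayed among the 10 highest. Deviations from the genotype means were hardly correlated between same-numbered libraries (0.017, -0.04 and 0.025). With 3 libraries of each genotype, these values cannot show whether the replicate numbers pair the libraries. The fit with the replicate block called the same 7 members and 480 genes in all. The 5 low SULT genes, with 232 to 489 counts each over all libraries, had standard errors of 0.19 to 0.29, and the part of depth in them was not tested.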
